A study of Mus musculus with 2 samples.

Results

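Splice junctions that were read in unstimulated CD4+ T cells and were absent from the list made after T cell receptor stimulation are described here. Members were chosen by their read counts: at least 10 mock reads spanned the junction, and its chromosome, intron start, intron end and strand had no entry after stimulation. Of 124183 junctions listed in either library, 948 met this rule. They were 3.2% of the 29624 junctions with 10 or more mock reads. The reverse rule, 10 or more stimulated reads and no entry in the mock library, took 1169 of 30768 junctions, or 3.8%. Both libraries came from helper T cells enriched with magnetic beads (BD IMag) from 4 pooled spleens of male C57BL/6JJcl mice, with no genetic change. The stimulated cells lay for 4 h on plate-bound antibodies against CD3e (2 ug/ml) and CD28 (2 ug/ml), and the mock cells were handled in the same way with no antibody. There was 1 library per group, so no difference between the groups has a replicate check, and the intervals given cover counting error only. Because the members were selected on the counts of both libraries, their absence from the stimulated library is a description and was not tested.

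A splice junction is the point at which the spliceosome joins the end of an upstream exon, at the donor site, to the start of a downstream exon, at the acceptor site. A read that crosses the point shows that the intron had been removed in that RNA molecule. A cell can lose a junction when it makes less of the transcript, or when it joins the same exons in another way, such as by skipping an exon or using another start or end of the gene. Stimulation through the T cell receptor and CD28 is known to shut down genes of the resting, recirculating T cell within hours and to change the splicing of many others.

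The joined exon ends of the members on which the results turn are printed here, to show what the reads crossed. Each line gives the last 15 bases of the upstream exon in lower case and the first 15 bases of the downstream exon in capitals, from GENCODE M21 transcripts. The first 7 are joins whose genes went on being read in the stimulated library, with the competing Gimap4 join after them.
Gimap4 member: gttcaacagggaacaTGCTCACCCCCCCCG
Ankrd52: agcttctctcctcagGTCAGCTGTATAGCA
Edc4: tcaggatgagccaagGTGTCTGCATGAATG
Tmem131: acaggctttttagatTACTTTGTATTGCCC
Syvn1: tgcctccaccttttgCCTTCCCCCCAATGC
Tbk1: gctattgaagaggagACAACAACAAGACAT
Hspa14: gccaagtttgcacagGTTGTACTCCAGGAC
Gimap4 competing join: gttcaacagggaacaAGGTGATGCATGAGT

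Short internal exons bordered by members are printed in capitals, with 10 bases of each neighbouring exon in lower case. Nptn and Ptbp3 have the members with most reads beside such an exon, Il17ra has the shortest exon of those printed, and in Trim25 the introns on both sides of the exon were members.
Nptn: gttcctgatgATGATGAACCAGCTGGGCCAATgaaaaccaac
Ptbp3: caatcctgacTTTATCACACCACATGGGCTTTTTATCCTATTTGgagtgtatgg
Il17ra: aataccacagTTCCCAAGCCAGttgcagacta
Trim25: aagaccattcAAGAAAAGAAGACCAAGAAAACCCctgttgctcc

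A last set shows joins that share an exon end. The Sp100 member joins an upstream exon to the exon after next, and both single joins were read in both libraries. The Slc28a2 and Gm14085 joins show the same 30 bases at joins of neighbouring genes.
Sp100 member: ggaaaaggacaggacCTTTCCTAGCAAGAA
Sp100 join into the skipped exon: ggaaaaggacaggacGGAAAAAGAGAGAGA
Sp100 join out of the skipped exon: caagctggaaaacagCTTTCCTAGCAAGAA
Slc28a2 member, intron 17: gtgcctgcatggcagGAATCCTCTATGTTC
Gm14085, intron 16: gtgcctgcatggcagGAATCCTCTATGTTC

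Positions are in mm9, counted from 1, and genes were named from GENCODE M21, whose build is GRCm38. The mock library held 1147232 junction reads over 97850 junctions and the stimulated library 1341197 reads over 97395 junctions, and 71062 junctions occurred in both. Mean insert sizes were 211.79 bp in the mock and 199.014 bp in the stimulated library, and the part of this difference in the results was not tested. The 8 T cell markers all had junctions, with 5594 mock and 7414 stimulated reads together. They went both ways in raw reads. Cd3e (701 to 475), Cd3g (682 to 425) and Cd4 (654 to 286) had fewer after stimulation, and Cd3d, Cd5, Lck, Thy1 and Trac had more. The 7 B cell markers had 196 and 160 reads, the 6 myeloid markers 39 and 20, and the 5 markers of CD8 T and NK cells 57 and 25. Itgam, Cd14, Cd8a, Ncr1 and Nkg7 had no named junction in either library. The part of other cell types in the results was not tested. Longer lists of marker genes had few genes with a junction of 10 or more mock reads that could hold a member. A member was held by 0 of 10 such B cell genes and by 0 of 1 such CD8 T and NK cell gene. Of 2 such myeloid genes Lyz2, the macrophage lysozyme, held 1 member with 10 mock reads. Over all genes with such a junction 12.4% held a member, and these lists are too short to compare with that share.

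Most members were read just often enough to be chosen. Their mock reads had a median of 13 and quartiles of 11 and 18, against a median of 19 over the 28676 junctions with 10 or more mock reads that were in both libraries. Exactly 10 reads were found at 196 members, 20 or more at 189, 50 or more at 20 and 100 or more at 3. Just outside the rule lay 222 junctions with 9 mock reads and no stimulated entry, and 373 with 10 or more mock reads and exactly 1 stimulated read. All members together held 15874 reads, which was 1.38% of the mock junction reads. A count of 0 in the stimulated library allows up to 3 reads, or 2.24 per 1000000 junction reads, and each lower bound on a fold below is against those 3 reads. The share of junctions that were absent fell with the mock reads, from 5.68% (5.24 to 6.15, exact Clopper-Pearson 95% interval) at 10 to 14 reads to 0.275% (0.0568 to 0.803) at 100 or more.

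Gimap4 and Pde2a held 2 of the 3 members with 100 or more mock reads. Gimap4, a GTPase of the immune-associated protein family, had 112 mock reads at the 908 bp intron chr6:48640457-48641364 (+), at least 43.6-fold lower. Pde2a, a phosphodiesterase that is activated by cyclic GMP and degrades cyclic nucleotides, had 109 mock reads at chr7:108654511-108655609 (+), at least 42.5-fold lower. These genes differ in the reads of their other junctions. Pde2a had 1232 remaining mock reads and 157 remaining stimulated reads, and Gimap4 had 394 and 379.

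A further 6 members with more than 50 mock reads lay in genes whose remaining reads were also lower after stimulation. Slc12a7, a potassium and chloride cotransporter, had 83 mock reads at intron 20 of 23, and its remaining reads went from 399 to 55. Tut4, which adds uridines to RNA ends, had 75 reads at intron 19 of 30 (603 to 178 remaining). Frmd8 had 63 reads in a 132 bp intron (212 to 43), and Selenop, the secreted selenoprotein P, had 56 at intron 3 of 4 (330 to 19). Arl6ip1, which shapes the endoplasmic reticulum, had 54 reads at intron 2 of 5 (121 to 59), and the kinase Mknk2 had 52 in a 90 bp intron (1018 to 295). Arl6ip1 kept the largest part of its remaining reads among these 6 genes.

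The comparison of a member with the remaining reads was made for every gene. The remaining reads of a gene are those of all its named junctions, without the junctions of 10 or more reads that were in only 1 library. Their stimulated to mock ratio was taken per 1000000 junction reads of each library, and a gene with 20 or more remaining reads was called lower or higher at a 2-fold difference with an exact 95% interval that left out 1. The 948 members lay in 659 genes, with 25 members in no named gene. Of the 634 genes with enough remaining reads, 425 (67.0%) were lower, 0 were higher and 209 (33.0%) were neither. Over all 7267 genes with enough reads, 24.6% were lower, 16.3% higher and 59% neither. Among the 5265 genes that had any junction of 10 or more mock reads, the shares were 27% lower, 12.7% higher and 60.3% neither. The median log2 ratio was −1.47 in the genes with a member, −0.20 over all genes and −0.30 over genes with a junction of 10 or more mock reads. In bulk RNA, fewer cells of a kind and less RNA per cell cannot be told apart.

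**Figure D1:**
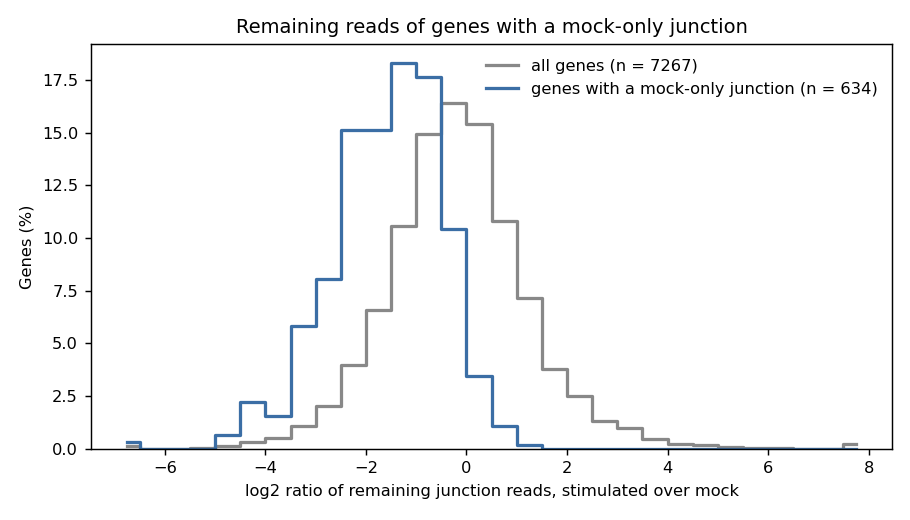
Share of genes (%, y axis) by the log2 ratio of their remaining junction reads, stimulated over mock (x axis, bins of equal width, the outermost bins holding all values beyond them and genes with no reads in 1 library). The blue line (634 genes with a mock-only junction) has its median at −1.47, and the grey line (7267 genes) at −0.20.

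Junctions were absent more often in genes that were lower. Of the 8534 junctions with 10 or more mock reads in lower genes, 676 (7.92%) had no stimulated entry. The figure was 219 of 17883 (1.22%) in genes called neither, and 0 of 2783 in genes called higher. The remaining 28 named members lay in genes with fewer than 20 remaining reads. Members were therefore mostly in genes whose other junctions also lost reads, and 71.3% of them lay in lower genes.

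Genes with several members were nearly all lower. A single member was found in 510 genes, 2 in 92 and 3 or more in 57. Of the 56 genes with 3 or more members and enough remaining reads, 54 were lower, with a median log2 ratio of −2.63. The exceptions were Rmc1 (208 to 125 remaining reads from mock to stimulated) and Ddx6 (137 to 98), an RNA helicase of mRNA decay, and Galk2 (8 to 5) had too few reads. Als2cl had 10 members with 307 mock reads, and 320 mock and 26 stimulated reads remained, a ratio of 0.0695 (0.0447 to 0.104). Pnpla7, a lysophospholipase, had 9 members with 191 reads, and its remaining reads went from 695 to 135. Pde2a and the polarity gene Patj had 7 members each. Adjacent introns of 1 transcript were both members in 71 pairs, among them introns 20 and 21 of Pde2a with 109 and 47 mock reads.

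Over all 5299 genes with a junction of 10 or more mock reads, 12.4% had a member, and the gene lists below are set beside that share. Of the 28 such genes in a list of naive and quiescent T cell genes, 12 (42.9%) had a member, with 36 members in all. Of the 30 listed genes with enough remaining reads 20 (66.7%) were lower and 2 higher, and their median log2 ratio was −2.30. Among all genes with a junction of 10 or more mock reads 27% were lower and 12.7% higher, with a median of −0.30. All lists were chosen with earlier results of these data known, so their shares are descriptions. Il7r, the interleukin 7 receptor chain that sustains naive T cells, had members with 23 and 10 mock reads and remaining reads that went from 1934 to 73. Tcf7, the transcription factor TCF-1, had 2 members of 10 reads each, and its remaining reads went from 4075 to 448. Klf3, a Krüppel-like repressor, had a member at its first intron (29 reads, 12943 bp), and its remaining reads went from 276 to 31. St8sia6, a sialyltransferase, had 3 members with 124 reads, of which 88 spanned a single 69221 bp intron, and 109 mock and 6 stimulated reads remained. Rapgef4, a Rap activator that binds cyclic AMP, had 4 members with 58 reads, all among its last introns from 23 to 29 of 30, and 109 mock and 4 stimulated reads remained. Its log2 ratio of −4.99 was −2.64 and not called lower when only junctions in both libraries were summed. Tgfbr3, the co-receptor betaglycan, had 3 members with 14, 13 and 11 reads, and its other junctions had 20 mock reads and 0 stimulated reads. Pik3ip1, an inhibitor of phosphoinositide 3-kinase, had 1 member with 14 reads (remaining reads 204 to 22), and Dapl1 had 2 with 23 and 15 (64 to 4).

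Adhesion and migration genes held 19 members in 5 of 23 listed genes with a junction of 10 or more mock reads (21.7%, against 12.4% of all such genes). Of 24 listed genes with enough remaining reads 12 (50%) were lower and 3 higher, with a median log2 ratio of −1.01. Among all genes with such a junction 27% were lower and 12.7% higher, with a median of −0.30. Itga4, the alpha 4 chain of the integrins VLA-4 and LPAM-1, had 6 members with 114 reads, of 26, 24, 22, 16, 15 and 11. They fell in introns 11, 24, 12, 8, 23 and 6 of 27, with pairs of neighbours at 11 and 12 and at 23 and 24. Its remaining reads went from 1086 to 252. Itgb7, the beta chain that pairs with it, had members of 17 and 14 reads (393 to 60 remaining). Itga6, a laminin-binding integrin chain, had 4 members with 25, 24, 24 and 18 reads (250 to 29). Arhgef18, a guanine nucleotide exchange factor of small GTPases, had 6 members with 116 reads (316 to 22), and Arhgap15, a Rac inhibitor, had 1 of 13 reads (210 to 65).

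T cell receptor signalling genes held 6 members, in 5 of 35 listed genes with a junction of 10 or more mock reads (14.3%), which is near the 12.4% of all such genes. Of the 35 with enough remaining reads 11 (31.4%) were lower and 7 higher, near the 27% lower among genes with such a junction, with a median log2 ratio of −0.19. Themis, a thymocyte selection adaptor, had a member of 30 reads in an 80557 bp intron (45 to 5 remaining). Plcg1, the phospholipase that follows receptor signalling, had members of 18 and 16 reads (665 to 263). The phosphatase-like Ubash3a had 11 reads (241 to 68). Sos1, a Ras activator, had 18 reads at intron 16 of 21 while its remaining reads went from 135 to 101 and the neighbouring introns from 17 to 14 and from 7 to 5. Outside the list, Rasa3, which turns off Ras and Rap, had a member of 78 reads (1851 to 239), and Rasgrp2, an activator of Rap, had 5 members with 80 reads (212 to 20).

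Chromatin regulators had a member in 9 of 36 listed genes, against 12.4% of all such genes, and 14 members in all. Of 37 with enough remaining reads 11 (29.7%) were lower and 4 higher, near the 27% background, with a median log2 ratio of −0.62. Smarca2, an ATPase of the SWI/SNF remodelling complex, had 6 of them with 24, 23, 20, 16, 16 and 10 reads, and its remaining reads went from 529 to 113. Kmt2d, a histone H3 lysine 4 methyltransferase, had 28 reads at intron 45 of 54, where the neighbours went from 63 to 44 and from 20 to 12 reads. Ep300, an acetyltransferase (11 reads), and Arid4b (10 reads) had members while their genes were neither lower nor higher. Splicing factors and other RNA-binding regulators had 2 members in 39 genes, in Ptbp3 and Mbnl1. A member was thus held by 5.13% of them, against 12.4% of all such genes. Of these 39 genes 2 were lower and 10 higher, with a median log2 ratio of 0.25. Among all genes with such a junction 27% were lower and 12.7% higher.

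To see which junctions were missing while the gene was still read, the mock reads of each member were multiplied by the stimulated to mock ratio of its gene's remaining reads. This gives the stimulated reads expected at equal loss, and 895 members had a value. The median was 4.77 reads, with quartiles of 2.67 and 8.40. At 640 members 3 or more reads were expected, at 157 members in 155 genes 10 or more, and at 29 members 20 or more. Of the 157, 126 lay in genes called neither and 31 in lower genes. The gene call and the expected value use the same ratio of remaining reads, so this split is in part built in. In the opposite direction, 158 of 1074 junctions seen only after stimulation had 10 or more mock reads expected. Over all junctions with 10 or more mock reads the absent share was 31.4% where fewer than 3 stimulated reads were expected, 1.54% at 10 to 19, 0.317% at 20 to 49 and 0.0420% at 50 or more. The expected value contains the junction's own mock reads, on which the members were selected, so these shares are a description. The 2 members at 50 or more were among 4759 such junctions.

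**Figure D2:**
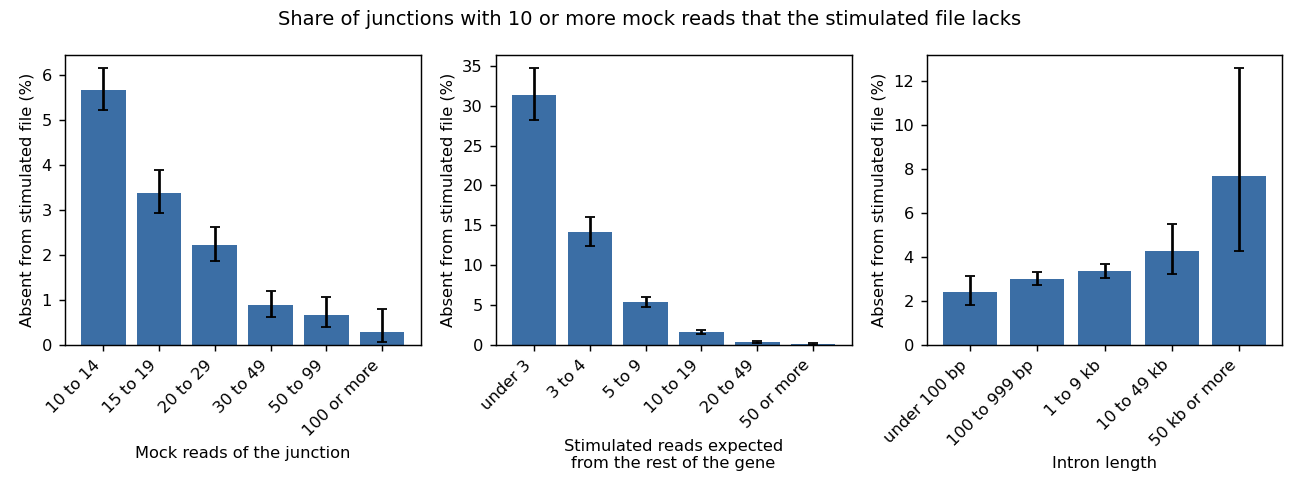
Share of junctions with 10 or more mock reads that had no stimulated entry (%, y axis) by mock reads, by stimulated reads expected from the rest of the gene and by intron length (x axes); error bars are exact 95% Clopper-Pearson intervals. The share falls to 0.275% at 100 or more mock reads and to 0.0420% at 50 or more expected reads, and is 7.69% in introns of 50 kb or more.

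Gimap4 had the highest expected value, 107.7 reads. Its donor at position 48640457 was joined in the mock library 112 times to the acceptor of the member and 2 times to an acceptor at 48640840. In the stimulated library the competing junction had 9 reads. The member thus took 98.2% (93.8 to 99.8) of the mock reads of this donor and none of the 9 stimulated ones. Other Gimap4 junctions were read at similar counts in both, from 253 to 229 at the first intron, from 41 to 44 at the second and from 61 to 61 at chr6:48640948-48641410.

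The Ankrd52 member lies in intron 11 of 27, with 52.9 reads expected. Ankrd52 is a regulatory subunit of protein phosphatase 6. The 76 bp intron at chr10:127820040-127820115 (+) had 36 mock reads. Its upstream neighbour had 38 mock and 39 stimulated reads and its downstream neighbour 13 and 15, and the remaining reads of the gene went from 239 to 351. No stimulated junction overlapped this intron.

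Nptn, the adhesion protein neuroplastin, had 70 mock reads at intron 5 of 7, chr9:58491610-58498303 (+), which ends at a 22-base exon. The upstream intron had 79 mock and 49 stimulated reads, and the downstream intron, on the other side of that exon, had 87 and 18. The exon was thus still joined on its downstream side in the stimulated library. A second junction into the same exon, chr9:58491492-58498303, had 8 mock reads and no stimulated read. From the donor of the member the stimulated library had 3 other junctions with 4 reads together.

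Ptbp3, a repressor of exon inclusion that binds pyrimidine tracts, had 47 mock reads at intron 9 of 13, chr4:59498245-59498478 (−), beside a 34-base exon. The neighbours went from 74 to 54 and from 5 to 10 reads, the remaining reads from 522 to 403, and no stimulated junction lay over the intron.

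Among the other members with high expected values, those named here, except the adjacent Mllt3 pair, lay between introns that were read in both libraries. Edc4, a scaffold of mRNA decapping, had 28 reads at intron 8 of 28, with neighbours that went from 8 to 1 and from 7 to 18. Tmem131 had 54 reads at intron 16 of 41, with neighbours of 42 to 15 and 5 to 5. Syvn1, the ubiquitin ligase HRD1 of the endoplasmic reticulum, had 29 reads in an 82 bp intron, with neighbours of 25 to 21 and 3 to 1. Tbk1, a kinase of innate signalling, had 31 reads at intron 3 of 20, with neighbours of 2 to 7 and 9 to 12. Hspa14, a heat shock protein of the HSP70 family, had 15 reads at intron 12 of 13, with neighbours of 17 to 20 and 13 to 12. Mllt3, a reader of acetylated histones also known as AF9, had adjacent members of 42 and 82 reads in introns 6 and 7 of 10, while intron 8 went from 19 to 7.

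**Figure D3:**
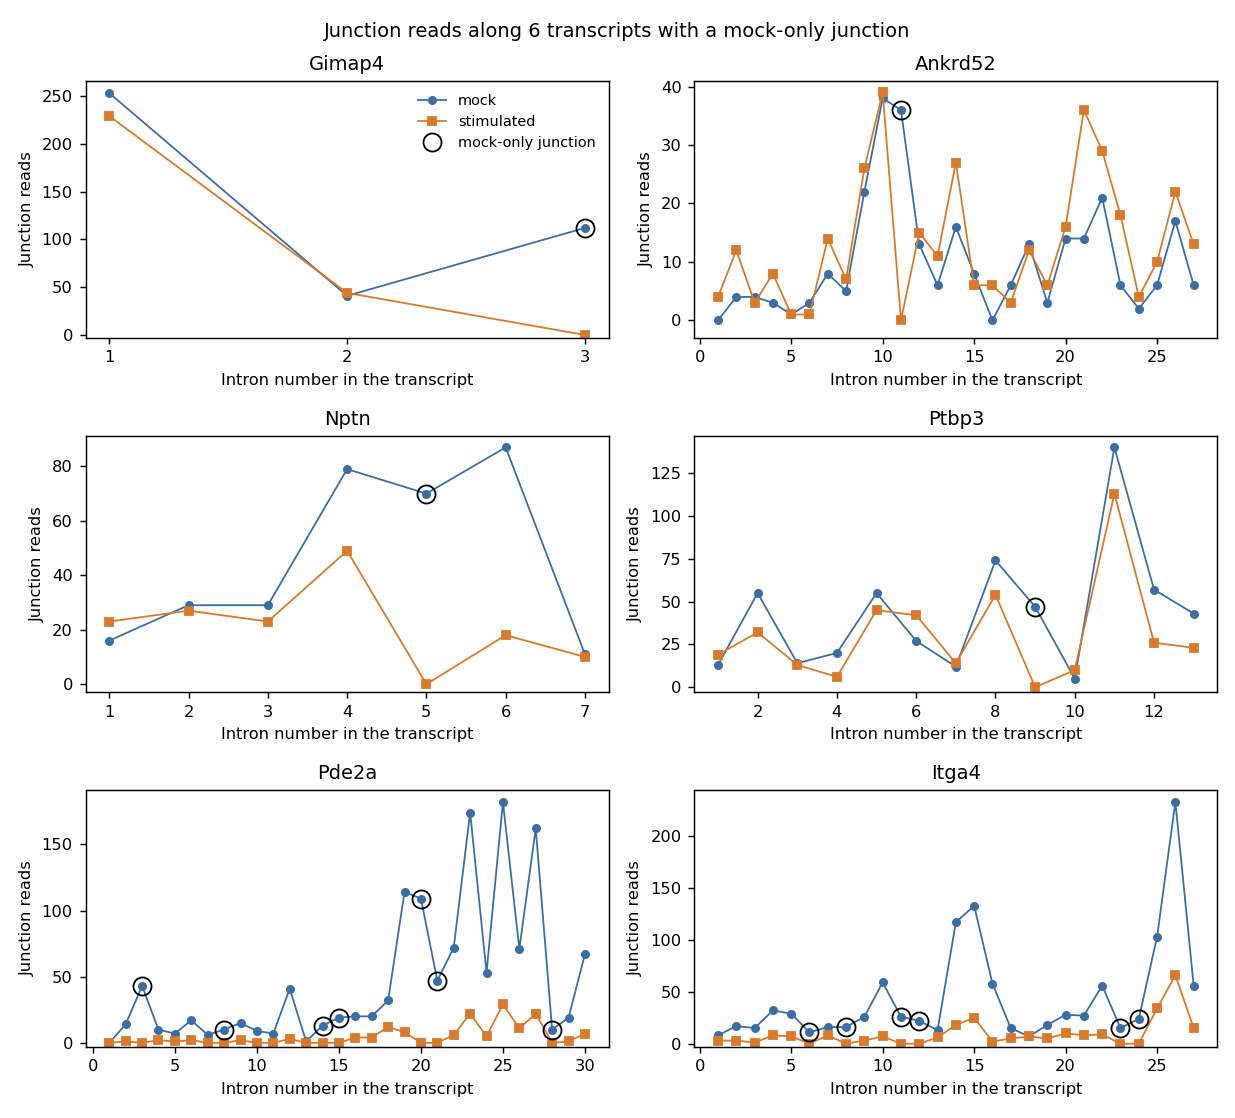
Junction reads (y axis) of each intron in transcript order (x axis) in the mock (blue circles) and stimulated (orange squares) library for 6 genes, with mock-only junctions ringed. In Ankrd52 the ringed intron 11 has 36 mock reads between neighbours that are read in both libraries, while in Itga4 every intron except 18, with 7 reads in each library, has fewer stimulated than mock reads.

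Across members the neighbours behaved in both ways. Of 758 members with a named intron on each side, both neighbours had a stimulated read at 385 (50.8%), neither had one at 84 (11.1%), and both had 10 or more at 39. The neighbouring introns held 23421 mock and 7444 stimulated reads in all. Neighbours that were themselves members, as in the 71 adjacent pairs, are included and by the rule have no stimulated read. Part of this loss, and of the members with neither neighbour read, is therefore built in. Of the 131 members with 10 or more expected reads and an intron on each side, both neighbours were read at 97 (74.0%). Those neighbours held 4316 mock and 2866 stimulated reads. The remaining reads behind the expected value include the neighbours that were not left out as single-library junctions. Choosing members by the expected value therefore favours neighbours that are read, and the 74.0% and 50.8% are descriptions.

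**Figure D4:**
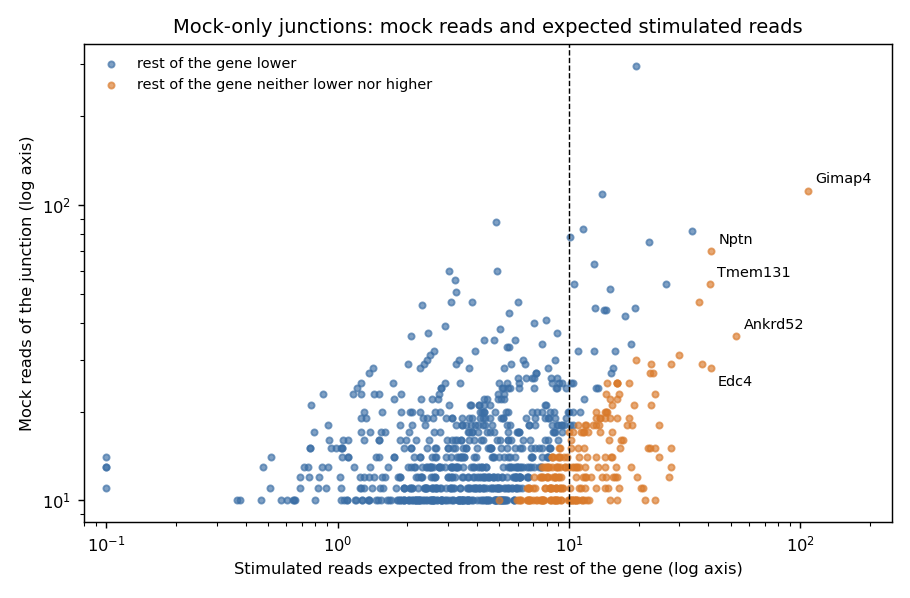
Mock reads of each member (y axis, log) against the stimulated reads expected from the rest of its gene (x axis, log; points at the left edge have an expected value of 0). Members right of the dashed line had 10 or more expected reads, and Gimap4 is the farthest right at 107.7.

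Few members shared an end with a junction found in both libraries. Both ends were shared at 6 members, the donor alone at 23, the acceptor alone at 39 and neither at 880. The share with any shared end was 7.17% (5.61 to 9.01), against 2874 of 28676 (9.68 to 10.4%) for junctions in both libraries with 10 or more mock reads and 9.75% for those seen only after stimulation. Counting every stimulated junction, 109 members (11.5%) had an end that was used in the stimulated library. A stimulated junction of any kind overlapped the intron of 137 members (14.5%), and none overlapped that of 811 (85.5%). This overlap was not counted for other junctions, so it has no share to be compared with. Members with an expected value had a median of only 4.77 stimulated reads expected. Whether deeper reading would list another join in the place of the missing one was not tested.

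Of the 6 members with both ends shared, 5 pass over an exon that both libraries joined on each side. The Sp100 member at chr1:87577715-87590833 (+) had 23 mock reads, and the joins into and out of the passed exon went from 26 to 8 and from 61 to 15. Sp100 is a component of nuclear bodies. Cmah, the hydroxylase that makes N-glycolylneuraminic acid, had 14 (14 to 1 and 39 to 3), and the transcription factor Elf1 had 11 (43 to 14 and 144 to 38). Sp3, a zinc finger factor, had 10 (32 to 29 and 63 to 23), and Gm21985 had 10 (2 to 3 and 15 to 7). The other one, in Pecam1, the adhesion molecule CD31, had 17 reads and lies within both longer junctions that share its ends, which went from 15 to 3 and from 8 to 2. The join into the passed exon had about the same count in each library in Sp3 and Gm21985. With 29 stimulated reads at the Sp3 donor, the 3 reads that a count of 0 allows equal 10.3% of those reads, and the member took 23.8% (12.1 to 39.5) of the donor's mock reads. At the Sp3 acceptor, with 23 stimulated reads, these 3 reads equal 13.0%. There the member took 13.7% (6.77 to 23.8) of the mock reads. The value from the 3 reads is set against the other junctions only, while the member's share is one of all reads at that end. The member was also selected for its stimulated count of 0, so a difference at either end was not tested.

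Members with 1 shared end ranged from the main to a minor use of that end. The Laptm5 member, in a lysosomal protein gene, had 44 mock reads and 18.3% (13.6 to 23.8) of the mock reads at its acceptor, and the other junction there went from 196 to 69. Ranbp10 had 38 reads, or 90.5% of its acceptor, and the other junction went from 4 to 1. The member of Ets1, a transcription factor, had 16 reads, or 5.52% of a donor whose main junction went from 274 to 64. Both Tcf7 members were minor, with 1.30% and 2.16% of the mock reads at the shared end, and so was the 10-read member of Il7r at 2.98%. Mbnl1, a regulator of alternative splicing, had 10 reads, or 3.61% of an acceptor whose other junctions went from 267 to 173. Tpr, a nuclear pore protein, had 12 reads at an acceptor whose other junction had 28 reads in each library. In Capg, an actin-capping protein whose remaining reads went from 129 to 193, the missing junction was a first intron of 10806 bp with 15 reads, and 22.4 stimulated reads were expected. At the same acceptor the stimulated library had 11 reads from a donor at 72499863 and 2 from one at 72498021, both with 0 mock reads, and the junction from 72499496 had 3 reads in each library.

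Some members join neighbouring genes of similar sequence, and their counts are uncertain. Slc28a2, a nucleoside transporter, and Gm14085 lie side by side on chromosome 2, and 16 pairs of their annotated exons have equal length and at least 70% identity, with a median of 96.9%. Gm14085 had 10 members with 281 reads (455 to 23 remaining) and Slc28a2 had 4 with 62 (235 to 28). Junctions from a Slc28a2 donor to a Gm14085 acceptor numbered 13, with 99 mock and 7 stimulated reads, and 3 of them were members with 25, 22 and 11 reads. The 30 bases printed above for Slc28a2 intron 17 and Gm14085 intron 16 have 0 differences, so the 25-read junction at chr2:122283719-122350817 (+) cannot be told from either gene's own join by these bases, and whether longer reads can tell them apart was not tested. Junctions of the same kind linked Ifi213 with Ifi206 (chr1:175412188-175524068, 10 reads) and Trim34a with Trim34b (chr7:111407950-111483801, 10 reads), interferon-inducible and tripartite motif genes. Their exon pairs chosen in the same way had median identities of 99.1% in each case.

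Of the 948 members 894 matched an annotated intron of a named gene, 24 shared 1 end with such an intron, 5 lay inside a gene and 25 had no name. The unnamed member with most reads, at chr5:141068471-141072427 (−), had 95 mock reads. The next, at chr15:9437111-9437288 (−), had 64, and the nearest named junction, 825 bases away, was of Il7r.

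Members spanned longer introns slightly more often than junctions in both libraries, and so did junctions seen only after stimulation. The intron length of members had a median of 1197.5 bp and quartiles of 435.25 and 3055.5, against 1054 bp, 342 and 2508.25 for junctions in both libraries. Junctions seen only after stimulation had a median of 1138 bp and quartiles of 376 and 2637. Introns of 50 kb or more were 1.48% of members, 1.03% of that set and 0.586% of junctions in both libraries. By length, 53 members were under 100 bp, 365 from 100 bp to under 1 kb, 460 from 1 to 9 kb, 56 from 10 to 49 kb and 14 of 50 kb or more. The absent share of junctions with 10 or more mock reads was 2.41% (1.81 to 3.14) under 100 bp, 365 of 12151 (2.71 to 3.32%), 3.34% (3.05 to 3.65), 4.25% (3.23 to 5.48) and 7.69% (4.27 to 12.6) in these classes. The longest introns were in Diaph2, a formin (132809 bp, 13 reads), and in Sntb1, a syntrophin (113773 bp, 51 reads). Of the 14 members of 50 kb or more, 5 join the neighbouring similar genes named above and are uncertain. The shortest, of 69 bp, were in Scrib, Man2a2 and Pkd1, with 11, 19 and 14 reads.

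The position of members in the transcript was close to that of other junctions. First introns were 51 of 894 (5.70%), against 5.32% of junctions in both libraries and 14.5% of those seen only after stimulation. Last introns were 85 (9.51% against 10.1%), and 848 lay between the first and the last coding base of their transcript (94.9% against 95.5%). Members bordered an internal exon of under 50 bases more often in these libraries, at 78 of 894 (8.72%) against 1370 of 28130 (4.87%), and 7.23% of those seen only after stimulation did so. In Il17ra, the interleukin 17 receptor, the 12-base exon followed an 18-read member. In Trim25, a ubiquitin ligase, both junctions of the 24-base exon were members with 23 and 19 reads, beside introns that went from 11 to 4 and from 28 to 30.

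The bases at the exon ends were close to those of other junctions. The upstream exon ended in AG at 54.9% of 893 members and 56.6% of 28129 junctions in both libraries, and the downstream exon began with G at 46.6% and 47.7%. The median GC content of the 30 bases was 50% in both. The smaller of the stretches covered by reads beside the junction had a median of 68 bp against 69. It was under 15 bp at 3 members (0.316%), a larger share than the 10 of 28676 (0.0349%) for junctions in both libraries. A stimulated junction with both ends within 10 bp was found for 27 members (2.85%), against 7.22% for junctions in both libraries, and no member had a stimulated junction at the same position on the other strand.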

How the data were processed

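The deposited files list splice junctions of 2 libraries, 1 mock and 1 stimulated, and the authors' score column holds raw counts of reads that span each junction, as whole numbers with no normalization. TopHat, Cufflinks and the build mm9 are named in the submitters' processing notes; any version, setting or filter was not given in the sources used here, and a junction that an aligner drops or moves in 1 library changes its count. Blocks were removed to obtain introns, given from 1 in mm9. Genes came from GENCODE M21 on GRCm38, another build, with no conversion of coordinates: a junction was named when its intron length and its distances to other junctions matched a transcript, which named 95619 of 124183 junctions (77.0%), and 137 that fitted several genes were left out. The naming was tested on simulated data. No genome was used; sequences come from GENCODE M21 transcripts.

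The minimum score was 10, the read minimum per gene 20, the fold 2, the distance for a near junction 10 bp, and the floor for a count of 0 was 3 reads. Intervals are exact Clopper-Pearson intervals at 95% and cover counting error only, since reads without molecular identifiers are not independent molecules. No p-value was computed, with 1 library per group. Genes named were drawn from the 20 members with most reads, the 5 with most reads per class of shared ends, genes with 3 or more members, the 10 with most expected reads, the 10 whose shared end was most read, the 3 longest and 3 shortest introns, and up to 5 per gene list; others named were chosen after their values were seen. Members and lists were chosen with earlier results of these data known. Other minimum scores, scalings, distances and definitions of a shared end were tried. Python 3.11.15, pandas 2.3.3, numpy 2.4.6, SciPy 1.17.1 and Matplotlib 3.10.9 were used. Some genes that meet the naming rule are not reported here.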

Additional observations from a re-analysis of the deposited data

How the results depend on the processing

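With a minimum of 5 mock reads in place of 10 there were 3506 mock-only junctions, 9.38% shared an end with a junction in both libraries, and 252 had 10 or more stimulated reads expected from the rest of the gene. With a minimum of 20 there were 189, of which 59 had 10 or more expected, and the median log2 ratio of the remaining reads was −2.11. An expected value of 3 or more in place of 10 or more gave 640 junctions. When a shared end needed a junction of 10 or more reads in each library, 1.90% of members had one. Leaving out members near a stimulated junction set the share near one to 0 by construction. Of 91 genes named by the rule, 9 were no longer called lower by their most-read remaining junction alone, 3 when only junctions in both libraries were summed and 2 when libraries were scaled by the median of ratios, which moved log2 ratios by 0.10. No called gene changed sign under these 3 settings. Of the genes called neither, Ankrd52 went from 0.33 to −0.19 by its most-read junction and Scrib from 0.029 to −0.0057 with junctions in both libraries. Rapgef4 lost its call under the first 2 settings, going from −4.99 to −3.93 and −2.64. So did Fbxo32, from −4.08 to −3.40 and −3.03. Bptf was at −0.92 and Kmt2d at −0.98 under the scaling. Members of 10 to 12 reads numbered 415, and depth limits what a missing entry shows for them. No paired analysis was possible because each group has 1 library, and no library could be left out.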
